A study of Mus musculus with 18 samples.

Results

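The ferritin heavy chain gene Fth1, the ferritin light chain gene Ftl1 and the transferrin receptor gene Tfrc were examined in RibOxi-seq (ribose oxidation sequencing) libraries of 4T1 mouse mammary carcinoma cells. These 3 genes were taken by name from the 19736 genes listed in the count table, and they held 735, 657 and 377 of its 1825851 positions. They were selected with their gene totals and their most counted positions by genotype already in view, so those values by genotype are given as a description, without a test. In this assay, fragmented poly(A)-enriched RNA is oxidized so that fragments whose last ribose carries a 2′-O-methyl group survive, and the deposited table counts, at each base, the reads that end there. A gene total therefore moves with the amount of RNA and with the share of fragment ends that withstood oxidation, and in these libraries the contributions of the 2 cannot be told apart.

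The genotypes were compared as oxidized libraries with 3 biologic replicates each. They were 4T1 WT and the clones Snord67KO-1 and Snord67KO-2, each grown from a single cell after CRISPR/Cas9 deletion of Snord67, a box C/D snoRNA within an intron of Ckap5. Since each knockout line is 1 clone, the deletion and other properties of the clone cannot be told apart. All 3 lines carried lentiviral mCherry and Renilla luciferase and were kept in puromycin. The 9 unoxidized control libraries were not analysed here. The 9 oxidized libraries held 212463 to 737219 counts, with Snord67KO-2 the shallowest (212463 to 423278). Counts at positions marked as mispriming in the table were 1.38% to 17.8% of a library, with the 17.8% in 4T1 WT replicate 2, and they were kept apart from the unmarked counts. The interval of Snord67 held 1 count in all, in Snord67KO-1 replicate 1, so the deletion could not be checked from these libraries. Of 7 epithelial markers, 7 had counts. They summed to 405 to 634 CPM (counts scaled to a library total of 1000000) in 4T1 WT, 888 to 964 in Snord67KO-1 and 734 to 855 in Snord67KO-2. Single markers differed in direction. Between the means of 4T1 WT and Snord67KO-1 (n = 3 each), Krt8 went from 65.0 to 276 CPM and Krt18 from 179 to 514, while Cldn4 went from 75.8 to 0.98, Cdh1 from 90.3 to 51.5 and Epcam from 30.2 to 16.1. In Snord67KO-2 these 5 stood at 163, 304, 50.1, 82.8 and 61.8 CPM. The part of these markers in the values below was not tested. Summed macrophage markers reached at most 41.6 CPM in a library, fibroblast markers 26.7, endothelial markers 29.7 and erythroid markers 7.42.

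Ferritin is a hollow shell of heavy and light chains in which cells store iron. The heavy chain oxidizes ferrous iron and the light chain favors formation of the mineral core, while transferrin receptor takes up iron bound to transferrin. Iron regulatory proteins bind hairpins called iron-responsive elements when iron is scarce, which blocks translation of the ferritin chains through an element in the 5′ UTR and stabilizes Tfrc mRNA through elements in the 3′ UTR. Tumor cells commonly take up large amounts of iron, and iron held in ferritin is not available for lipid peroxidation, the reaction behind ferroptosis.

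The principal transcript of Fth1 (ENSMUSG00000024661.7) has 4 exons at chr19:9982646-9985098 on the plus strand and is 929 bases long, of which 549 are coding. That of Ftl1 (ENSMUSG00000050708.16) has 4 exons at chr7:45457944-45459884 on the minus strand and 968 bases, of which 552 are coding. Tfrc (ENSMUSG00000022797.16) has 19 exons at chr16:32608920-32632794 on the plus strand and 4890 bases, of which 2292 are coding and 2458 are 3′ UTR. Coordinates are from GRCm38, the build that the file positions follow, and sequences are from the GENCODE transcripts of that build.

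The iron-responsive elements are shown because the 3 mRNAs share this control hairpin and the counts below can be read against it. A script searched for a bulged C, 5 bases, the loop CAGTGN and 5 bases that could pair with the first 5, allowing G-U pairs, on the transcript strand only. Each element is printed 5′ to 3′ as 30 bases with the bulged C and the 6-base loop in capitals. It lay at chr19:9982732-9982761 in the Fth1 5′ UTR and at chr7:45459778-45459807 in the Ftl1 5′ UTR, and 4 matches lay in the Tfrc 3′ UTR, all in exon 19, at chr16:32631219-32631248, chr16:32631598-32631627, chr16:32631663-32631692 and chr16:32631710-32631739.
Fth1 element: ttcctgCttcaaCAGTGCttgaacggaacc
Ftl1 element: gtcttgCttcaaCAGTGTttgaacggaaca
Tfrc element 1: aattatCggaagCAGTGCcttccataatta
Tfrc element 2: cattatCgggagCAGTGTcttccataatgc
Tfrc element 3: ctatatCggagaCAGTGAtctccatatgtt
Tfrc element 4: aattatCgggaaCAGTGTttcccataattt
Such a match was rare. Of 6675 genes with a 5′ UTR at least as long as that of Fth1, 6 had a match in the first 224 bases (0.0899%). Of 2946 genes with a 3′ UTR at least as long as that of Tfrc, 36 had a match in the first 2458 bases (1.22%). A match is a description of these letters and not evidence of a working element.

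Windows around the most counted positions are shown because single positions carry part of each gene's total. Each has 14 bases before the read-end base and 8 after it, on the strand of the mRNA. The read-end base is in capitals, as is each of the following 6 bases that equals the base most often found there after marked positions. Over 28599 marked positions in exons these 6 most common bases were CTGTAG, with C following in 98.5%, T in 89.8% and G in 88.0% of positions at the first 3 places. The windows below are the most counted unmarked position of each gene, then the most counted marked one.
Fth1 unmarked, chr19 base 9982918: actaccaccaggacGCgGagGct
Ftl1 unmarked, chr7 base 45459774: tgaacggaacagacCCgGggatt
Tfrc unmarked, chr16 base 32615381: actccatagagtttGCTGacacc
Fth1 marked, chr19 base 9984210: cgagatgatgtggcTCTGaAGaa
Ftl1 marked, chr7 base 45459762: acccggggattcccACTGTActc
Tfrc marked, chr16 base 32631803: tgaattcctaacttCCTGTAGct
The unmarked windows matched that run at 3, 2 and 3 of 6 bases, and the marked ones at 5, 5 and 6. The second marked position of Ftl1, base 45459201, read cgggatgacgtggcTCTGgAGgg. This window was identical to the Fth1 marked window at 18 of 23 bases, with 7 counts over all libraries at the Fth1 position and 5 at the Ftl1 position.

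Fth1 had the higher gene total in both knockout clones. Its unmarked counts in 4T1 WT replicates 1 to 3 were 219, 167 and 153, or 297, 261 and 245 CPM of the library total. In Snord67KO-1 they were 560, 437 and 658, or 831, 889 and 958 CPM. In Snord67KO-2 they were 162, 313 and 451, or 762, 849 and 1065 CPM. All 6 knockout libraries lay above all 3 WT libraries, and the clones overlapped each other. Genes whose libraries lay above WT without overlap were 27.8% of the 5748 genes tested for Snord67KO-1 and 10.1% for Snord67KO-2. Nothing is read from that comparison for genes chosen by these values.

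The mean of Fth1 was 268 ± 26.7 CPM in 4T1 WT, compared with 893 ± 63.5 in Snord67KO-1 and 892 ± 156 in Snord67KO-2 (SD, n = 3 each). The log2 difference from WT was 1.74 (SE 0.10) for Snord67KO-1, a 3.34-fold level, and 1.73 (SE 0.16) for Snord67KO-2, a 3.31-fold level. Per library total, the median of all genes tested stood at a log2 difference of 0.24 for Snord67KO-1 and −0.10 for Snord67KO-2. Relative to that median, Fth1 differed by 1.50 in Snord67KO-1 and 1.82 in Snord67KO-2. Fth1 thus lay above the typical gene in both clones.

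Ftl1 varied less by genotype. Its unmarked counts were 186, 112 and 142 in 4T1 WT, 183, 121 and 197 in Snord67KO-1 and 69, 122 and 168 in Snord67KO-2. In CPM, these were 252, 175 and 227 in 4T1 WT, then 272, 246 and 287 in Snord67KO-1, then 325, 331 and 397 in Snord67KO-2. The 3 Snord67KO-2 libraries lay above the other 6, while Snord67KO-1 and WT overlapped. Genes without overlap in that direction were 5.36% of those tested for Snord67KO-2 against Snord67KO-1.

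The mean of Ftl1 was 218 ± 39.3 CPM in 4T1 WT, compared with 268 ± 20.6 in Snord67KO-1 and 351 ± 40.0 in Snord67KO-2 (SD, n = 3 each). The log2 difference from WT was 0.31 (SE 0.17) in Snord67KO-1 and 0.70 (SE 0.18) in Snord67KO-2. Relative to the median gene these became 0.07 and 0.79. Ftl1 in Snord67KO-1 was therefore close to the typical gene of that clone.

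The ratio of heavy to light chain counts per kb of transcript was above 1 in every library. It was 1.23, 1.55 and 1.12 in 4T1 WT, 3.19, 3.76 and 3.48 in Snord67KO-1, and 2.45, 2.67 and 2.80 in Snord67KO-2. The means were 1.30 ± 0.225, 3.48 ± 0.287 and 2.64 ± 0.178 (SD, n = 3 each), and the 3 genotypes did not overlap. Nothing is read from that separation, since the ratio is built from the totals by which the genes were chosen. How often other gene pairs separate in this way was not computed. This ratio is formed within a library and does not depend on the scaling of library totals. Near-identical copies limit it, because 85.7% of the 30-base stretches of the Ftl1 transcript also occur in transcripts of other genes, 32 genes in all, and 92.5% of its exon counts ended such a stretch. For Fth1 these were 13.6% of stretches, 3 genes and 19.4% of exon counts, and for Tfrc 0. Of the 32 genes like Ftl1, 2 had rows of their own, Mir692-1 with 22 counts and Mir692-2 with 168. How reads with several matches were assigned is not given in the sources used here.

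Tfrc had few counts, and 4T1 WT replicate 2 stood apart. Its unmarked counts were 32, 100 and 30 in 4T1 WT, 34, 26 and 26 in Snord67KO-1, and 10, 26 and 35 in Snord67KO-2. The levels were 43.4, 157 and 48.0 CPM in 4T1 WT, then 50.5, 52.9 and 37.9 in Snord67KO-1, then 47.1, 70.5 and 82.7 in Snord67KO-2. Every pair of genotypes overlapped. The means were 82.6 ± 64.0, 47.1 ± 8.06 and 66.8 ± 18.1 CPM (SD, n = 3 each).

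The order of the Tfrc means depended on that WT library. The log2 difference from WT was −0.56 (SE 0.61) for Snord67KO-1 and −0.08 (SE 0.64) for Snord67KO-2. Without 4T1 WT replicate 2 the WT mean was 45.7 CPM, and the differences became 0.03 and 0.51. The same library had the highest share of marked counts, and it held 43 of the 68 marked Tfrc counts. Without it, the differences of Fth1 were 1.72 and 1.71 and those of Ftl1 0.16 and 0.55.

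**Figure D1:**
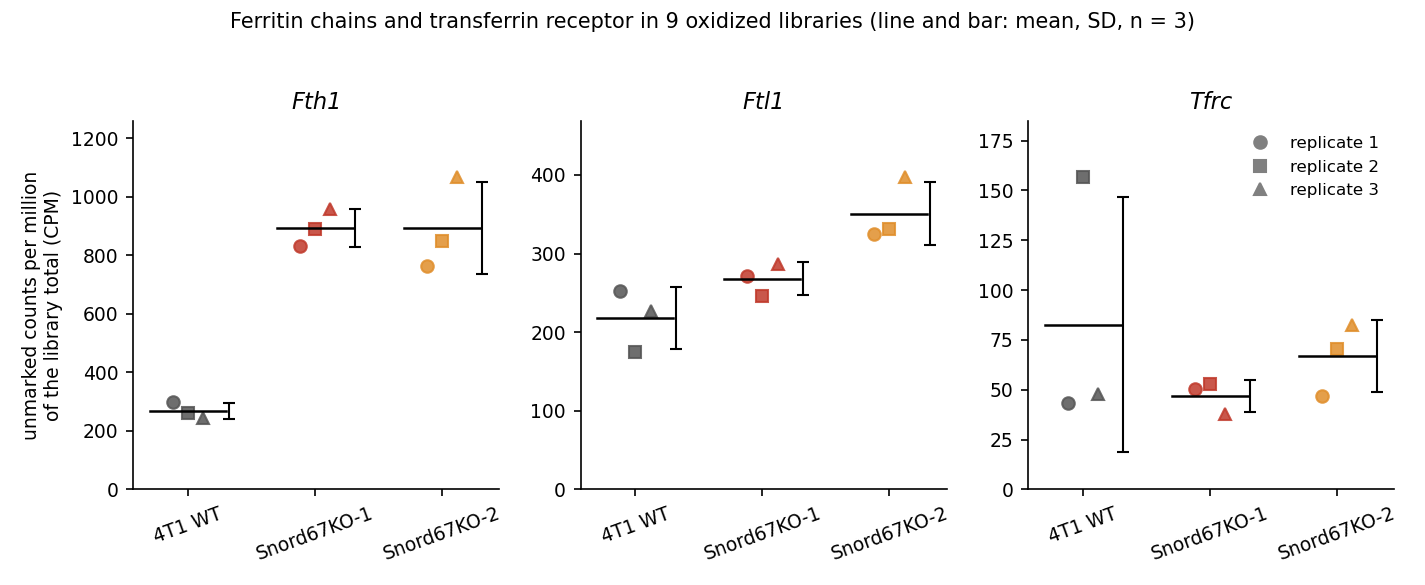
Unmarked CPM of Fth1, Ftl1 and Tfrc in the 3 libraries of each genotype, with the mean as a line and the SD as a bar. All 6 knockout libraries of Fth1 (762 to 1065) sit above the 3 WT libraries (245 to 297), whereas 4T1 WT replicate 2 alone, at 157, sets the WT mean of Tfrc.

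Per kb of transcript the 3 mRNAs differed widely. In 4T1 WT the levels were 288 ± 28.8 CPM per kb for Fth1, 225 ± 40.6 for Ftl1 and 16.9 ± 13.1 for Tfrc (SD, n = 3 each). Over all libraries Fth1 ranked 15 and Ftl1 64 among 13716 genes by exon counts per kb, and Tfrc ranked 1369. The counts of the ferritin chains were thus spread over many bases. Of the exon bases, 70.6% in Fth1, 49.4% in Ftl1 and 4.07% in Tfrc had at least 1 unmarked count. Of the unmarked positions with a count, 27.5%, 45.8% and 93.5% had a single one.

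The most counted unmarked position of Fth1, base 9982918, lay in codon 17 in exon 1. It held 10, 9 and 4 counts in 4T1 WT, 37, 44 and 21 in Snord67KO-1, and 2, 8 and 21 in Snord67KO-2. In CPM these were 13.6, 14.1 and 6.40 in WT, 54.9, 89.5 and 30.6 in Snord67KO-1, and 9.41, 21.7 and 49.6 in Snord67KO-2. Snord67KO-1 did not overlap WT, while Snord67KO-2 overlapped both. Since the genes were chosen with this position in view, nothing is read from that separation. How often other positions separate in this way was not computed. The bases directly before and after it held 3 counts and 1 count over all libraries against 156 at the position itself.

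The Nm score of a base is its count divided by the mean of its neighbors, with 0 set to 1. At base 9982918 it was 7.67 ± 3.21 in 4T1 WT, compared with 34.0 ± 11.8 in Snord67KO-1 and 10.3 ± 9.71 in Snord67KO-2 (SD, n = 3 each). In each library the neighbors were at 0 or 1, so the score equaled the count itself. As a share of unmarked Fth1 counts, the position made up 4.57%, 5.39% and 2.61% in WT libraries, 6.61%, 10.1% and 3.19% in Snord67KO-1, and 1.23%, 2.56% and 4.66% in Snord67KO-2. The 3 genotypes overlapped in this share. The 95% Wilson interval was 7.59% to 13.2% for the highest library, Snord67KO-1 replicate 2, and 0.339% to 4.39% for the lowest, Snord67KO-2 replicate 1, and these intervals cover counting error only.

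**Figure D2:**
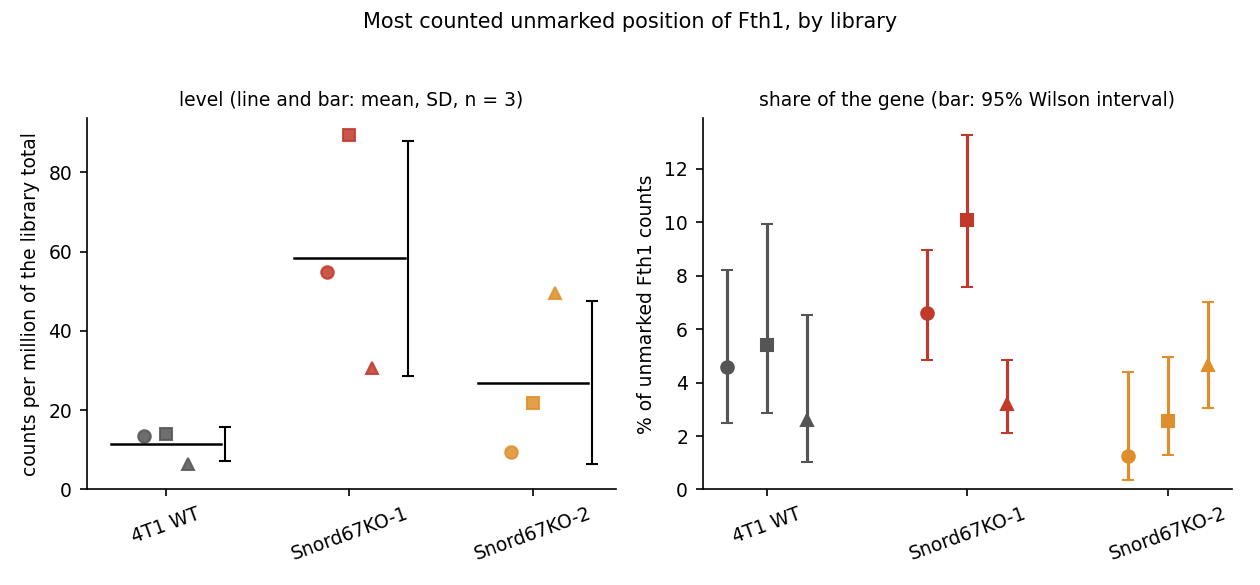
Left, CPM at the most counted unmarked position of Fth1 in each library, with mean and SD; right, the same counts as a percentage of all unmarked Fth1 counts, with 95% Wilson intervals. The level is 30.6 to 89.5 CPM in Snord67KO-1 and 6.40 to 14.1 in WT, but the shares, 1.23% to 10.1%, overlap among the genotypes.

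With that position left out, Fth1 stood at 256 ± 23.9 CPM in 4T1 WT, compared with 834 ± 81.5 in Snord67KO-1 and 865 ± 135 in Snord67KO-2 (SD, n = 3 each). The gene total therefore differed by genotype about as much without its main position. It was the single position among the 3 genes with at least 10 counts in 3 or more libraries. The next 4 unmarked positions of Fth1 held 24 to 37 counts. These were base 9984631 in codon 111, bases 9984817 and 9984818 in codon 142 and base 9984232 in codon 56. Base 9984817 had 0 counts in each WT library, 11, 4 and 9 in Snord67KO-1, and 0, 3 and 2 in Snord67KO-2. A count of 0 in a library allows up to 3 counts.

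In Ftl1, 4 of the 5 most counted unmarked positions lay in the 5′ UTR within exon 1. Bases 45459774 and 45459775 held 27 and 21 counts and lay a few bases beyond the iron-responsive element. Base 45459800, with 20 counts, lay inside it, and base 45459189, with 19 counts, was in codon 48. Base 45459717, farther downstream in the 5′ UTR with 23 counts in all, held 5, 9 and 1 counts in 4T1 WT, 4, 1 and 1 in Snord67KO-1, and 0, 1 and 1 in Snord67KO-2. The marked base 45459762, also in the 5′ UTR, held 4, 12 and 2 counts in WT, 9, 7 and 0 in Snord67KO-1, and 1, 0 and 0 in Snord67KO-2. At both of these bases every pair of genotypes overlapped in CPM.

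In Tfrc, base 32615381, in codon 143 in exon 4, held 83 of the 319 unmarked counts (26.0%). Its counts were 6, 60 and 1 in 4T1 WT, 9, 1 and 0 in Snord67KO-1, and 1, 1 and 4 in Snord67KO-2, so 60 of them came from 4T1 WT replicate 2. The marked base 32631803 in the 3′ UTR had 3, 37 and 1 counts in WT, 6, 8 and 0 in Snord67KO-1, and 1, 2 and 3 in Snord67KO-2. The other 4 of the 5 most counted unmarked positions held 2 to 7 counts, of which base 32627109 was intronic. Without base 32615381, Tfrc stood at 48.1 ± 13.7 CPM in WT, compared with 41.9 ± 7.71 in Snord67KO-1 and 61.1 ± 16.5 in Snord67KO-2 (SD, n = 3 each).

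**Figure D3:**
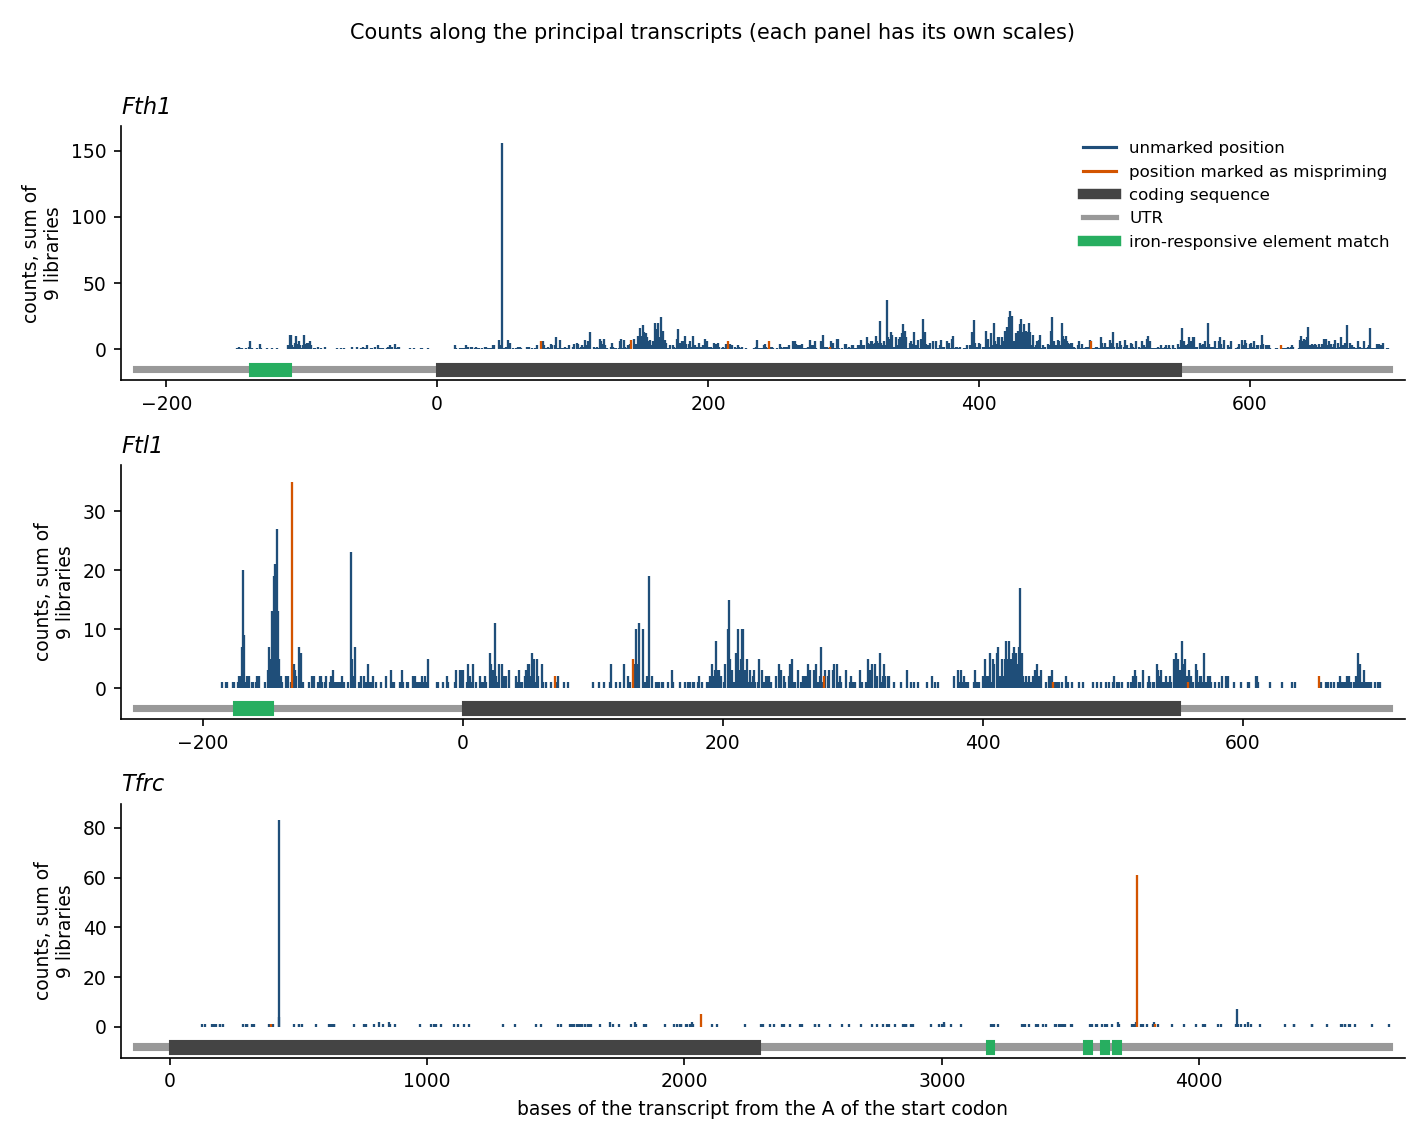
Counts summed over 9 libraries at each base of the principal transcripts, by distance from the start codon, with unmarked and marked positions in different colors and the coding sequence, UTRs and iron-responsive element matches below each axis. Fth1 and Tfrc each have 1 tall unmarked position (156 and 83 counts), and the highest unmarked position of Ftl1 (27 counts) lies in its 5′ UTR just past the element.

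The genes also differed in where along the mRNA the counts fell. This comparison was made within each library between regions of the same mRNA, on unmarked counts per kb, with 0.5 count added to each region and a two-sided exact sign-flip permutation test over libraries. The 6 p-values were adjusted together by the Benjamini-Hochberg method. The Fth1 5′ UTR held 177 counts (790 per kb) and its coding sequence 2380 (4335 per kb). The 5′ UTR was lower in 9 of 9 libraries, by a mean log2 ratio of −2.40 (SE 0.09, exact permutation, adjusted p = 0.0117). Across 4244 genes the median of this ratio, on summed counts, was −2.30, and 5.61% of genes were above 0, so Fth1 was close to the typical gene.

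The 5′ UTR of Ftl1 held 349 counts (1379 per kb) against 825 in its coding sequence (1495 per kb). The mean log2 ratio was −0.11 (SE 0.13), lower in 6 of 9 libraries, and did not pass the exact permutation test (adjusted p = 0.418). Stretches of 30 bases shared with other genes made up 60.7% of positions in this 5′ UTR and 95.8% in the coding sequence, against 0% and 22.2% in Fth1, and the part of multi-mapped reads in these ratios was not tested. On summed counts 6.95% of genes had a higher ratio than Ftl1 and 54.0% a higher one than Fth1. The per-library ratios were −0.51 to 0.57 for Ftl1 and −2.78 to −1.94 for Fth1, without overlap. The first base with a count was transcript position 69 in Ftl1 and 77 in Fth1. With the first 75 bases left out, a choice made after seeing this, the Ftl1 ratio turned to 0.39 (exact permutation, adjusted p = 0.0156) and that of Fth1 became −1.81 (adjusted p = 0.0117).

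The 30 bases of the Ftl1 element were more densely covered than the rest of its 5′ UTR. The element held 83 counts (2767 per kb) against 266 (1193 per kb) in the rest of that UTR. Its counts were 9, 10 and 8 in 4T1 WT, 16, 5 and 11 in Snord67KO-1, and 6, 5 and 13 in Snord67KO-2. Without the 68 bases before the first counted one, the rest of the Ftl1 5′ UTR stood at 1716 per kb. For Fth1 the order depended on that stretch. Its element held 30 counts (1000 per kb) against 147 elsewhere, which was 758 per kb over the whole 5′ UTR and 1246 per kb without the 76 bases before the first counted one. The 4 Tfrc elements together held 10 counts. These densities were not tested.

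In the 3′ UTR, counts per kb fell below those of the coding sequence in both ferritin chains. For Ftl1 the 3′ UTR held 118 counts (724 per kb) and the mean log2 ratio was −1.11 (SE 0.20, lower in 9 of 9 libraries, exact permutation, adjusted p = 0.0117). For Fth1 it held 544 counts (3487 per kb) with a ratio of −0.29 (SE 0.09, lower in 8 of 9, exact permutation, adjusted p = 0.0176), and this call was lost without base 9982918 (−0.20, adjusted p = 0.0703). The median over 4627 genes was −0.24. The Tfrc ratio was −0.42 (SE 0.23, lower in 5 of 9, exact permutation, adjusted p = 0.122) and turned to 0.15 without base 32615381.

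The 140 bases of the Tfrc 5′ UTR held 0 counts against 183 in the coding sequence (79.8 per kb). With 3 counts over all libraries as the limit that a count of 0 allows, the 5′ UTR was at least 3.73-fold lower per kb. This limit was 2.04-fold without base 32615381 and 2.26-fold without 4T1 WT replicate 2. The test passed with 0.5 count added (adjusted p = 0.0156, exact permutation, 8 libraries with enough counts) and not with 1 count added (adjusted p = 0.633) or with the first 75 bases left out (adjusted p = 0.930), so at this depth the region was not separable from its coding sequence by this test. The first counted base of Tfrc was transcript position 268.

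**Figure D4:**
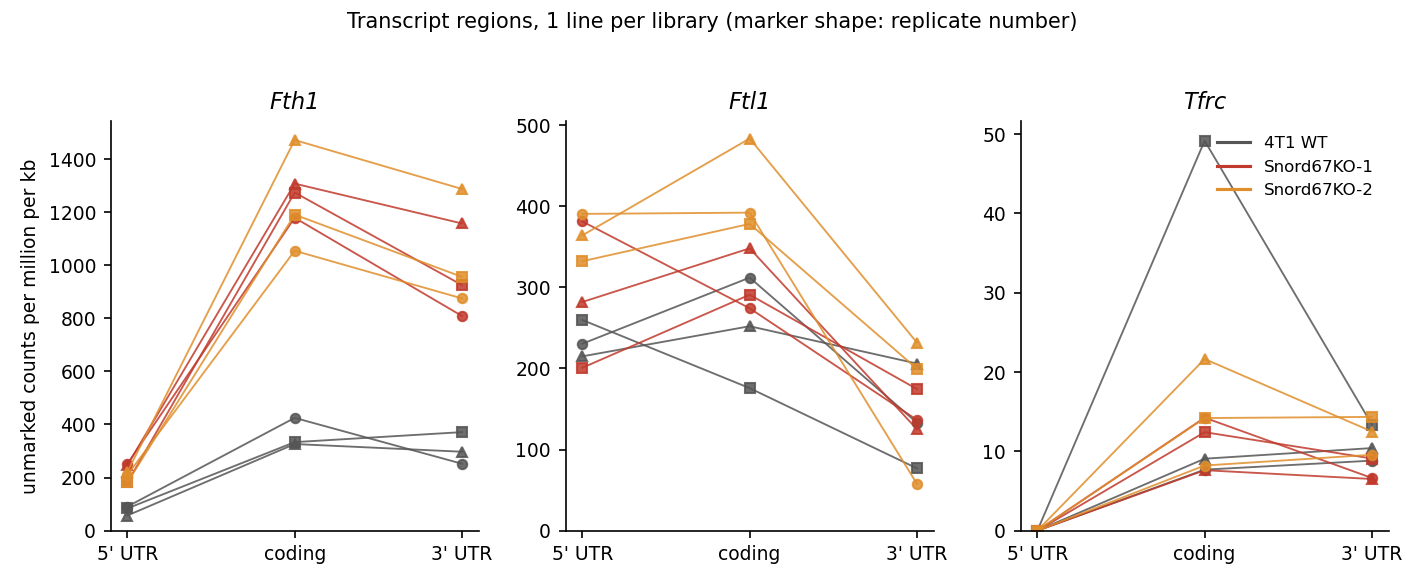
Unmarked CPM per kb in the 5′ UTR, coding sequence and 3′ UTR of each gene, with a line per library colored by genotype. The Fth1 5′ UTR is below the coding sequence in all 9 libraries, the Ftl1 5′ UTR is near it, and the Tfrc peak of 49.2 in the coding sequence is 4T1 WT replicate 2.

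Reads of both ferritin chains ended in A more often than the share of A in their bases, as did reads over all genes. In exons, 30.1% of Fth1 counts and 29.0% of Ftl1 counts ended in A, where A made up 23.8% and 20.4% of the transcripts. In Tfrc 36.0% ended in G, where G made up 21.7% of bases, but base 32615381 is itself a G, and without it 25 of 217 counts did (11.5%). Over all genes 34.4% of exon counts ended in A, where A made up 25.7% of bases.

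The genes whose levels over the 9 libraries were most like each member were found by Pearson's r of log2(CPM + 1) among 1390 genes with a mean of at least 50 CPM. For Fth1 these were Tmsb4x, an actin-sequestering thymosin (r = 0.985), Spp1, which encodes osteopontin (r = 0.984), and Anxa2, a membrane-binding annexin (r = 0.983). Tmsb4x had 35.2 ± 4.52 CPM in 4T1 WT, compared with 107 ± 23.2 in Snord67KO-1 and 105 ± 17.6 in Snord67KO-2 (SD, n = 3 each). For Ftl1 they were the glutamate receptor gene Grik3 (r = 0.974), the ribosomal protein gene Rplp2 (r = 0.939) and Tmsb10 (r = 0.935). For Tfrc they were the actin gene Actg1 (r = 0.914), the proline synthesis gene Aldh18a1 (r = 0.901) and the ribosomal protein gene Rpl32 (r = 0.882), with WT means of 366 ± 103, 128 ± 41.0 and 591 ± 367 CPM (SD, n = 3 each). Between members r was 0.77 for Fth1 and Ftl1, −0.24 for Fth1 and Tfrc and −0.31 for Ftl1 and Tfrc. The libraries span 3 genotypes that also differ in depth, so these correlations over 9 libraries describe the table only.

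The other genes of iron handling were tested to place the 3 members. Of 95 genes in 7 lists, 88 were in the table and 41 had at least 10 unmarked counts in 3 libraries. The lists were chosen with earlier results of these data known, so their counts beside the all-gene shares are a description. edgeR's quasi-likelihood test with TMM scaling was fitted to all 5748 genes that passed this filter, with Benjamini-Hochberg adjustment over all of them. In Snord67KO-1, 4 iron genes rose and 4 fell, where 20.2% of all genes tested were called (11.5% higher and 8.72% lower). With library totals alone as the scale, 5 rose and 2 fell, where 17.3% of all genes were higher and 3.43% lower. In Snord67KO-2, 4 rose and 0 fell by edgeR against a background of 3.9% (2.94% higher and 0.957% lower). In that clone 11 iron genes had an unadjusted p below 0.05 by edgeR, where 18.3% of all genes did. DESeq2 called 3 of 41 there, where it called 1.91% of all genes and left 2118 without an adjusted p. For the average of both clones 5 rose and 2 fell, where 11.9% of all genes were called (6.47% higher and 5.45% lower). The median log2 difference of the 41 genes was −0.07 for that average, against −0.03 for all genes tested. Most of the iron genes thus did not pass the test.

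Cp, Acsl4 and Gclm were higher in both clones. Cp, encoding the plasma ferroxidase ceruloplasmin, had 28, 27 and 20 unmarked counts in 4T1 WT, 82, 60 and 97 in Snord67KO-1, and 52, 100 and 102 in Snord67KO-2. No clone overlapped WT in CPM. Of all genes tested, 27.8% lay above WT without overlap in Snord67KO-1 and 10.1% in Snord67KO-2. The log2 difference from WT was 1.51 (SE 0.21, edgeR adjusted p = 4.68e-05) in Snord67KO-1 and 2.78 (SE 0.21, edgeR adjusted p = 3.61e-08) in Snord67KO-2. Hephaestin, Heph, the other ferroxidase tested, stood at 0.25 (edgeR adjusted p = 0.428) and 0.41 (edgeR adjusted p = 0.355).

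Acsl4, which loads polyunsaturated fatty acids into membrane lipids, had 33, 22 and 23 counts in WT, 50, 39 and 61 in Snord67KO-1, and 13, 40 and 55 in Snord67KO-2. It rose by a log2 difference of 0.79 (SE 0.23, edgeR adjusted p = 0.0191) and 1.42 (SE 0.24, edgeR adjusted p = 0.00112). The call in Snord67KO-1 was lost by DESeq2 (adjusted p = 0.101), without a filter (edgeR adjusted p = 0.0865), with marked positions included (log2 0.41, edgeR adjusted p = 0.238) and without any of 4T1 WT replicate 2, Snord67KO-1 replicate 2 or replicate 3 (edgeR adjusted p = 0.0528 to 0.0589). Gclm, a subunit of the enzyme that starts glutathione synthesis, rose by 0.75 (SE 0.20, edgeR adjusted p = 0.0126) and 0.88 (SE 0.21, edgeR adjusted p = 0.0228). Gclm also had 671 marked counts, and with those included its differences turned to −0.42 and −0.52 and no longer passed. It also missed the threshold by DESeq2 (adjusted p = 0.051 and 0.057) and without a filter (edgeR adjusted p = 0.0539 and 0.0576), and in Snord67KO-2 without 4T1 WT replicate 1 or any library of that clone (edgeR adjusted p = 0.0511 to 0.117). Of the 9 genes in the ferroptosis and Nrf2 list tested, Acsl4 and Gclm were called. Of all genes, 20.2% were called in Snord67KO-1 and 3.9% in Snord67KO-2. Gpx4, which reduces lipid peroxides, stood at 0.30 (edgeR adjusted p = 0.395) and −0.11 (edgeR adjusted p = 0.878). Nfe2l2, encoding Nrf2, had 77.0% of its unmarked counts at 1 position.

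Among 6 uptake genes tested, the called ones differed by clone, where 20.2% of all genes were called in Snord67KO-1 and 3.9% in Snord67KO-2. Lcn2, encoding the siderophore-binding lipocalin 2, had 18, 17 and 13 counts in WT, 33, 10 and 17 in Snord67KO-1, and 70, 110 and 131 in Snord67KO-2. It rose in Snord67KO-2 (log2 3.73, SE 0.25, edgeR adjusted p = 9.22e-09) and stood at 0.14 in Snord67KO-1 (edgeR adjusted p = 0.785). Scara5, a scavenger receptor that binds ferritin, had 1 count in each WT library, 27, 15 and 36 in Snord67KO-1, and 2, 1 and 6 in Snord67KO-2. Only the Snord67KO-1 libraries reached the 10 counts of the filter. Scara5 thus entered the test through the clone where it was high, and its adjusted p-values carry that limit. The log2 difference of Scara5 from WT was 4.34 in Snord67KO-1 (SE 0.52, edgeR adjusted p = 1.17e-05). In Snord67KO-2 it was 2.42 (SE 0.78, edgeR adjusted p = 0.0896). With the libraries of a genotype pooled, the ratio of Scara5 counts per library total in Snord67KO-1 to WT was 28.1. Its 95% exact counting interval of 9.26 to 139 leaves out the spread between replicates. Steap1 and Steap2, of the STEAP family of metalloreductases, fell by 1.14 (SE 0.34, edgeR adjusted p = 0.022) and 0.67 (SE 0.23, edgeR adjusted p = 0.0426) in Snord67KO-1. Outside WT, Steap1 reached 10 counts only in Snord67KO-1 replicate 3, so it passed the filter through WT, where it was high. Steap1 lost its call without any of 4T1 WT replicate 2, Snord67KO-1 replicate 1 or replicate 3 (edgeR adjusted p = 0.0535 to 0.116), and Steap2 without any Snord67KO-1 library, 4T1 WT replicate 3 or Snord67KO-2 replicate 1 (edgeR adjusted p up to 0.176). By DESeq2 neither passed (adjusted p = 0.115 and 0.187), nor with library totals alone (−0.87 and −0.39, edgeR adjusted p = 0.0752 and 0.241), and Steap2 did not with at least 30 counts in 3 libraries (edgeR adjusted p = 0.0593) or with marked positions included (edgeR adjusted p = 0.114).

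Between the clones, 3 iron genes differed, where 6.32% of all genes tested did (2.73% higher and 3.58% lower). Lcn2 and Cp were higher in Snord67KO-2, by log2 differences of 3.59 (SE 0.25, edgeR adjusted p = 2.29e-08) and 1.27 (SE 0.19, edgeR adjusted p = 0.000333). Scara5 was lower, by −1.92 (SE 0.45, edgeR adjusted p = 0.013), and lost its call by DESeq2 (adjusted p = 0.0893) and without Snord67KO-2 replicate 2 (edgeR adjusted p = 0.0961). With library totals alone 2 iron genes were higher and 3 lower, where 1.1% of all genes were higher and 6.72% lower. Without 4T1 WT replicate 2, 6 of 37 iron genes tested were called, where 9.95% of all genes were.

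Cpox and Hspa9 fell in Snord67KO-1 and did not pass the test in Snord67KO-2. For the average of both clones both passed, at log2 differences of −1.68 for Cpox and −0.92 for Hspa9 (edgeR adjusted p = 0.00244 and 0.000504). Neither passed the test between the clones (edgeR adjusted p = 0.309 and 0.0677). Cpox, which oxidizes coproporphyrinogen late in heme synthesis, had 29, 24 and 37 counts in WT, 6, 11 and 5 in Snord67KO-1, and 2, 9 and 9 in Snord67KO-2. Its log2 difference was −2.16 (SE 0.40, edgeR adjusted p = 0.000714) in Snord67KO-1 and −1.19 (SE 0.42, edgeR adjusted p = 0.119) in Snord67KO-2. Outside WT, Cpox reached the minimum count of the filter only in Snord67KO-1 replicate 2. Cpox thus entered the test through WT, where it was high, and its adjusted p-values carry that limit. Of 4 heme genes tested, Cpox was the one called, where 20.2% of all genes were called in Snord67KO-1, so nothing is read from this count. Hspa9, a mitochondrial chaperone that hands over new iron-sulfur clusters, had 272, 200 and 186 counts in WT, 99, 74 and 144 in Snord67KO-1, and 41, 75 and 96 in Snord67KO-2. It fell by 1.21 in Snord67KO-1 (SE 0.18, edgeR adjusted p = 0.0001) and was at −0.62 in Snord67KO-2 (SE 0.18, edgeR adjusted p = 0.0631). Of 8 iron-sulfur genes tested, Hspa9 was the one called, where 20.2% of all genes were called in Snord67KO-1.

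Of the 7 genes of iron sensing and the 5 of iron storage and ferritin turnover that were tested, 0 passed the edgeR test in the 4 contrasts and 0 passed that of DESeq2. Of all genes, 23.2% passed in any contrast by edgeR and 11.5% by DESeq2. At an unadjusted p below 0.05 in any contrast there were 2 and 3 by edgeR, where 45.7% of all genes met this, and 1 and 2 by DESeq2, where 30.6% did. Ireb2, which encodes iron regulatory protein 2 and binds the elements shown above, had 48, 35 and 29 counts in WT, 31, 15 and 31 in Snord67KO-1, and 7, 18 and 10 in Snord67KO-2. Its log2 difference was −0.70 (SE 0.26, edgeR adjusted p = 0.0578) and −0.64 (SE 0.30, edgeR adjusted p = 0.253). Pcbp1 and Pcbp2, which deliver iron to ferritin, stood at 0.12 and 0.27 in Snord67KO-1 (edgeR adjusted p = 0.825 and 0.43) and at 0.58 and −0.44 in Snord67KO-2 (edgeR adjusted p = 0.37 and 0.39). Ncoa4, the receptor that delivers ferritin to lysosomes, was named after its values were seen and stood at −0.37 (SE 0.25, edgeR adjusted p = 0.32) and −1.02 (SE 0.33, edgeR adjusted p = 0.0854). In simulated counts for the average contrast, 42.5% of 2-fold and 92.0% of 4-fold changes were called. For that contrast, changes of about 2-fold were thus often beyond this depth. The simulation gave all genes a common spread and both clones the same change. Recovery in a single clone or between the clones was not simulated.

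**Figure D5:**
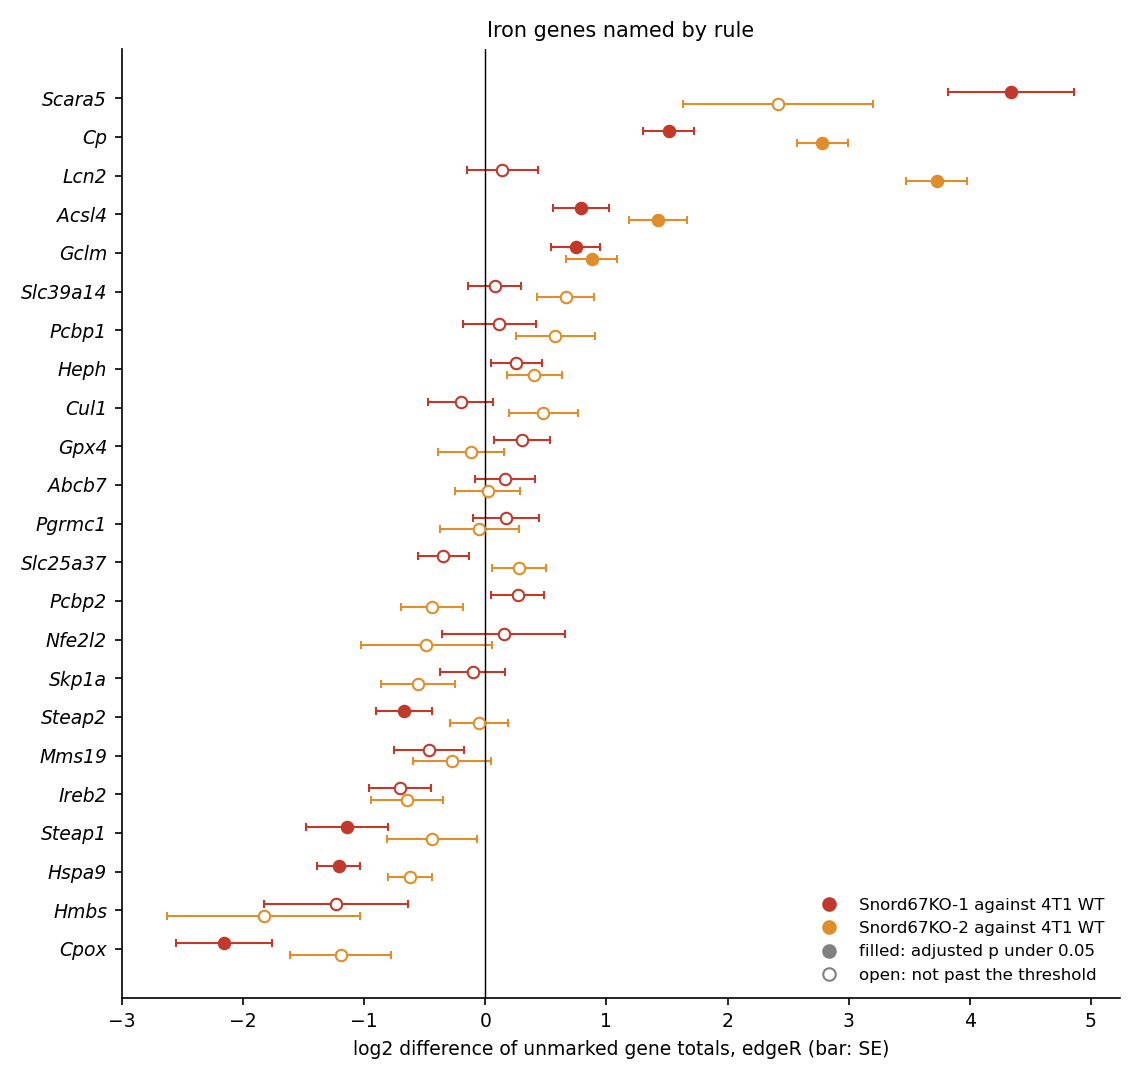
Log2 difference of unmarked gene totals from 4T1 WT for the 23 iron genes named by rule, with SE bars, in each clone, and filled where the edgeR test was passed. Cp, Acsl4 and Gclm are filled in both clones, Lcn2 in Snord67KO-2, and Scara5, Steap1, Steap2, Hspa9 and Cpox in Snord67KO-1.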

How the data were processed

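The authors removed adapter sequence (cutadapt), joined mates (pear), aligned the joined reads and counted read 3′ ends per base. The submitters' processing notes name cutadapt, STAR and mm10, without versions, and the methods name another build for their index, but the deposited positions fit GRCm38 transcripts. The deposited counts are raw and unnormalized, with a gene name and a mispriming mark per position. Gene totals were summed over unmarked positions and divided by the library total (212463 to 737219 counts), giving CPM. The members and lists were chosen with earlier results of these data known. Members were described without a test. Iron genes were tested with edgeR 4.0.16 (quasi-likelihood, TMM, at least 10 counts in 3 of 9 libraries, no covariates, adjusted p below 0.05) in R 4.3.3, tested first on simulated data, with DESeq2 1.42.0 as an alternative. Region ratios used exact sign-flip permutation (Python 3.11.15, numpy 2.4.6). Named were the members, their 5 most counted unmarked and 2 marked positions, the 3 iron genes per list with the highest mean CPM, every called iron gene, and the 3 genes most correlated with each member. All 9 libraries were counted as separate samples because they are described as biologic replicates. Every library pair within a genotype differed by more than sampling noise (chi-square per degree of freedom 1.23 to 6.78). Such a spread can also come from library preparation and does not show that the cultures were independent.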

Additional observations from a re-analysis of the deposited data

Results flagged for a closer look

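Tfrc 5′ UTR counts per kb against the coding sequence lay far from the other libraries in 4T1 WT replicate 2, at a log2 ratio of −3.15 with the next lowest at −1.46. This library held 60 counts at the most counted coding base and the 5′ UTR held 0 in every library. Such gaps were sought in 6 sets of 8 or 9 libraries, and chance gives about 1 in 20.

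The effect against 4T1 WT differed between the clones, by the test of Snord67KO-2 against Snord67KO-1, for 3 iron genes. The log2 difference was 3.59 for Lcn2, 1.27 for Cp and −1.92 for Scara5 (edgeR adjusted p = 2.29e-08, 0.000333 and 0.013), and Scara5 did not pass by DESeq2 (adjusted p = 0.0893). Scara5 also passed the count filter only through Snord67KO-1, where it was high.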

How the results depend on the processing

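TMM-scaled library sizes gave Fth1 log2 differences of 1.48 for Snord67KO-1 against WT and 0.29 for Snord67KO-2 against Snord67KO-1, and Ftl1 differences of 0.047 and 0.68, while DESeq2 size factors gave 1.48 and 0.28, and 0.053 and 0.68. By construction these scales remove the shift of the median gene. The Ftl1 5′ UTR ratio turned to 0.0038 with marked positions included and to 0.39 with the first 75 bases left out. The Fth1 3′ UTR ratio was −0.20 and that of Tfrc 0.15 with the main position left out. The Tfrc 5′ UTR ratio was −0.23 with 1 count added and −0.079 with the first 75 bases left out. With the bases before the first counted one left out, the log2 density of the Fth1 element against the rest of its 5′ UTR turned from 0.40 to −0.32, and without base 32615381 the share of Tfrc counts ending in G turned from 14.3 percentage points above the share of G bases to a difference of −10.2. These 2 alternatives, and those for the limit on the Tfrc 5′ UTR, were chosen after seeing the data. The cause was not tested. Leaving out each library gave Tfrc differences of −0.90 to 0.03 for Snord67KO-1 and −0.42 to 0.51 for Snord67KO-2.

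The number of iron genes called in Snord67KO-1 was 8 of 41 tested, with 20.2% of all genes called. It was 4 of 41 by DESeq2 (9.93% of all genes), 5 of 19 with at least 30 counts in 3 libraries (27.8%) and 5 of 42 with marked positions included (18.2%). Leaving out each library gave 4 to 9, where 11.1% to 19.0% of all genes were called. Without Snord67KO-1 replicate 1, 2 or 3 it was 5 of 37 (11.1%), 5 of 40 (13.8%) and 4 of 38 (12.5%). For Snord67KO-2 against Snord67KO-1 the number was 3 of 41 (6.32% of all genes). It was 5 of 41 with library totals only (7.81%), 5 of 87 without a filter (2.92%) and 2 to 6 without each library (1.87% to 9.95%). For the average of both clones it was 7 of 41 (11.9%), and 11 of 87 without a filter (4.27%). DESeq2 called 571 genes of all tested in Snord67KO-1 against 1162 by edgeR, 110 against 224 in Snord67KO-2, 128 against 363 between the clones and 313 against 685 for the average, with 2118 genes of Snord67KO-2 left without an adjusted p by DESeq2. With library totals only, 997 of 1194 calls in Snord67KO-1 were higher, against 661 of 1162. Gclm turned to −0.42, −0.52 and −0.47 (average) with marked positions included.

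Deviations from the genotype mean correlated at −0.12 to 0.20 over 9 library pairs with the same number, and at −0.23 to 0.11 over 18 with different numbers. The highest were 4T1 WT with Snord67KO-1 at replicate 2 (0.20) and replicate 3 (0.16). Not every library correlated best with its own number, and the labels state no pairing, so the numbers were not taken as pairs. A shared batch between same-numbered libraries was not tested. With a replicate block the iron genes called were 7 for the average, 8 in Snord67KO-1, 4 in Snord67KO-2 and 3 between the clones, as without it. Of all genes, 12.6%, 20.8%, 4.49% and 6.51% were called with that block. Adding the rows of Mir692-1 and Mir692-2 to Ftl1 gave 0.24 and 0.60. No other copy of the members had rows. Depth limits Tfrc most, with 10 unmarked counts in its lowest library. The other 226 recomputed values for members, regions and iron gene counts kept their side of the threshold, moved by less than the spread between replicates or, for counts, stayed near the main count.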
